A study of Mus musculus with 14 samples.

Results

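Efferocytosis is the removal of dying cells by phagocytes. A dying cell shows signals on its surface, among them phosphatidylserine and calreticulin, soluble bridging proteins attach to these signals, and receptors on the phagocyte bind the bridges and start engulfment. In the liver most of this work is done by Kupffer cells, the resident macrophages that lie within the sinusoids, which also clear bacteria, old red cells and immune complexes from portal blood. The 10 genes described here are 5 markers of these resident macrophages (Cd5l, Clec4f, Vsig4, Timd4 and Marco), 3 genes of engulfment signals and bridges (Calr, Gas6 and Tgm2) and 2 engulfment receptors (Mertk and Axl). They were chosen by gene symbol in the annotation of the array platform, out of 19505 named genes. Each was read by 1 probe set, so no choice among probe sets was needed.

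Livers of 14 male C57BL/6N mice were measured, 1 Clariom S array for each mouse. All mice were 10 weeks old and wore the adjustable clothes. In 7 mice, the compression group, the clothes pressed on the trunk for 8 hours in the light period, in which mice rest, and in the 7 mice of the no-compression group they did not. The question was how a compression load to the trunk alters hepatic gene expression, here that of the genes by which dying cells are taken up and of the resident macrophages that do so.

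All values are on the log2 scale, as the authors obtained them with qFarms. This method flattens a probe set to 1 level when its probes show no common variation over the arrays, also where that level is high. A probe set with an SD above 0.01 over the 14 arrays is called a probe set with spread, and 1238 of 22206 probe sets had it. Of the others nothing can be read on a change between groups, up or down. No-compression replicates 6, 3 and 7 stood apart. They scored 16.7, 9.57 and 9.45 on principal component 1 (57.1% of the variance of the probe sets with spread), where the other no-compression arrays lay between −6.73 and −3.34 and the compression arrays between −4.35 and 2.25. Results are therefore also given without these 3 arrays. They hold the highest values of several of the genes, and leaving them out by itself lowers the no-compression mean of those genes. The hepatocyte markers Alb, Apoa1 and Apoa2 stood at mean log2 levels of 13.39, 13.09 and 13.21, well above the negative control rows, but only 2 of the 7 measured markers had spread (Apoa1, log2 difference 0.02, and Fgb, −0.02), so they give little reading of a group difference. Whole liver was measured, so fewer cells of a type and less RNA in each cell cannot be told apart.

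Of the 10 genes 6 had spread, namely Tgm2, Gas6, Calr, Marco, Cd5l and Vsig4. Mertk, Axl, Clec4f and Timd4 had an SD of 1.04e-05 over the 14 livers, and the compression and no-compression groups had the same value to 2 decimals, 8.11 for Mertk, 7.95 for Axl, 8.75 for Clec4f and 7.21 for Timd4. Both receptors and 2 of the 5 macrophage markers therefore gave no reading of a group difference. The table holds no detection call. Rows of negative control probes had a median of 5.81 and a 95th percentile of 7.48. The mean levels of Timd4 (7.21) and Marco (7.33) lay below that percentile. Gas6 lay close to it, with a mean of 7.62 over the 14 livers and 7.49 in the compression group. Livers of both groups lay below it for Gas6. A reading of Timd4 or Marco, and of Gas6 in its lower livers, is therefore not clearly separated from background.

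Among the 6 genes with spread, 5 had a lower mean in the compression group and Vsig4 had the same mean to 2 decimals, with a median log2 difference of −0.13. With limma 0 of the 10 genes passed an adjusted p of 0.05, as did 0% of all 22206 probe sets (lowest adjusted p = 0.3). At an unadjusted p under 0.05 in limma 1 of the 10 genes, Tgm2, was lower, against 2.45% of all probe sets. Over the 1238 probe sets with spread 51.7% had a lower mean and the median log2 difference was 0.00. By the rank products method 3 of the 10 genes, Tgm2, Gas6 and Calr, were called lower at an FDR of 0.01 and 0 were called higher, against 1.20% of all probe sets called lower and 1.31% called higher. Rank products sets probe sets against each other by rank, and 260 of its 266 lower calls fell among those with spread, of which 21% were called lower. Calr, Gas6, Marco and Tgm2 are also among the genes that the study selected on these same arrays, so their direction is no independent evidence.

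**Figure D1:**
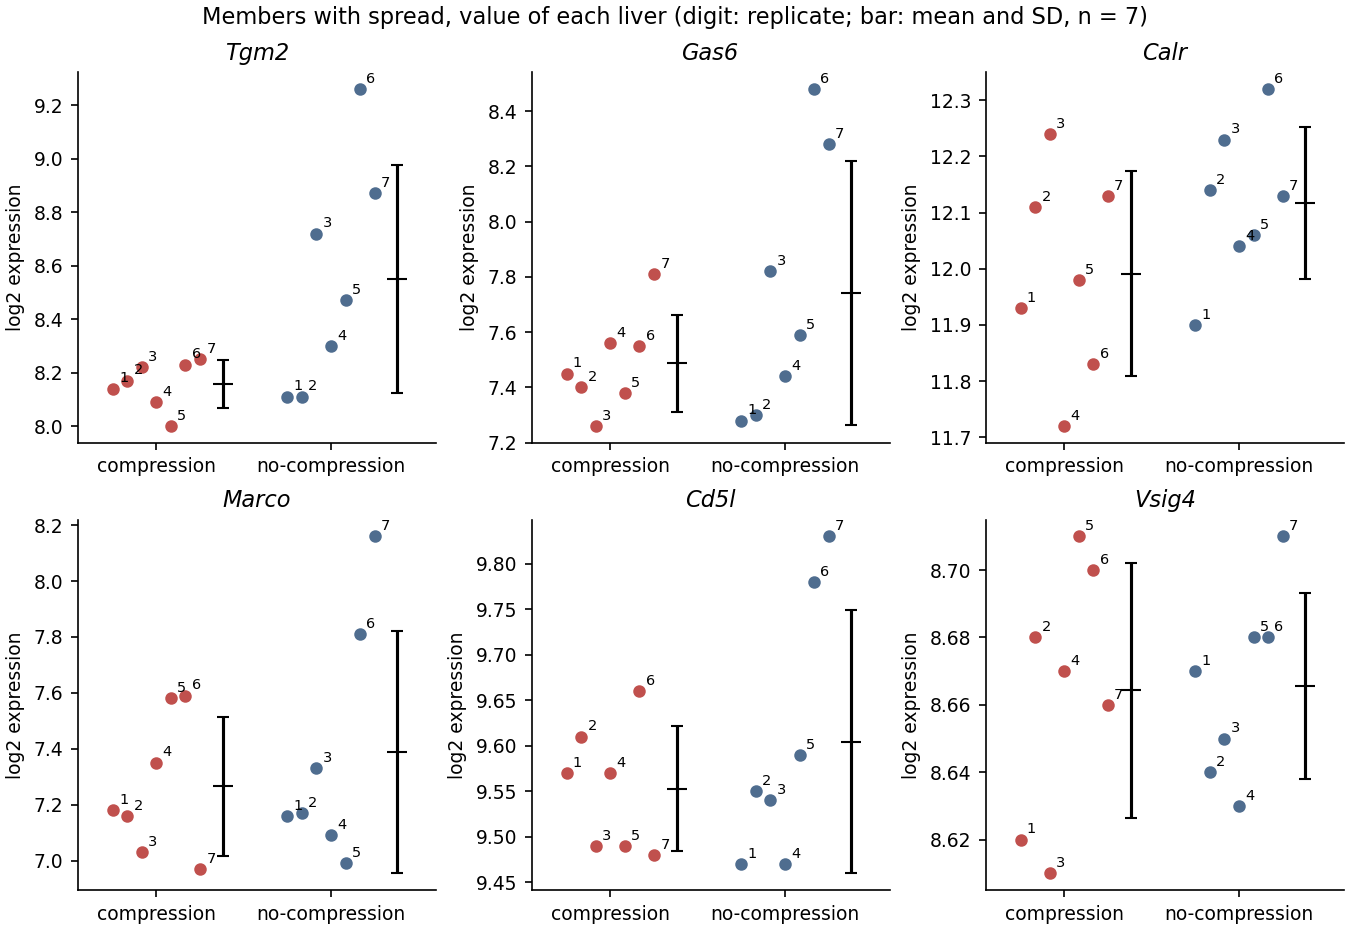
Log2 expression of the 6 genes with spread (vertical axes, each with its own range) in the livers of the compression group (left) and the no-compression group (right). Each point is 1 liver with its replicate number and the bar beside each group is the mean with SD (n = 7). The no-compression replicates 6 and 7 are the highest livers for Tgm2, Gas6, Marco and Cd5l, and the compression replicates 4 and 6 are the lowest for Calr.

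Tgm2, a transglutaminase that cross-links proteins and that macrophages use together with integrins to form the cup around a dying cell, had the largest difference of the 6 genes. Its log2 value had a lowest, median and highest of 8.00, 8.17 and 8.25 in the compression group, against 8.11, 8.47 and 9.26 in the no-compression group. The compression livers lay close together, while 5 of the 7 no-compression livers lay above the highest of them and the other 2 lay among them, so the groups overlapped. The mean was 8.16 ± 0.09 (SD, n = 7) in the compression group and 8.55 ± 0.43 (SD, n = 7) in the no-compression group, a log2 difference of −0.39 (standard error 0.162, 95% interval −0.74 to −0.04). This was 0.763 of the level of the no-compression group, with an unadjusted p = 0.0321 and an adjusted p = 0.943 in limma and a two-sided exact permutation p = 0.0297, not adjusted for the number of genes. Without no-compression replicates 3, 6 and 7 the difference was −0.09 (95% interval −0.26 to 0.08).

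Gas6, a vitamin K-dependent protein that bridges phosphatidylserine on the dying cell to the receptors Axl and Mertk, stood high in 2 no-compression livers. The lowest, median and highest log2 values were 7.26, 7.45 and 7.81 in the compression group, against 7.28, 7.59 and 8.48 in the no-compression group. Only no-compression replicates 6, 7 and 3 lay above the highest compression liver, replicate 3 by little (7.82), and the other 4 lay within the range of the compression group. The mean was 7.49 ± 0.18 (SD, n = 7) in the compression group and 7.74 ± 0.48 (SD, n = 7) in the no-compression group, a log2 difference of −0.25 (standard error 0.188, 95% interval −0.66 to 0.16, adjusted p = 0.967 in limma). The difference was −0.13 without no-compression replicate 6 and −0.16 without no-compression replicate 7, and without replicates 3, 6 and 7 together its sign turned, to 0.09 (95% interval −0.14 to 0.31).

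Marco, a scavenger receptor of Kupffer cells that binds bacteria and cell debris, was also high in no-compression replicates 6 and 7. Its lowest, median and highest log2 values were 6.97, 7.18 and 7.59 in the compression group, against 6.99, 7.17 and 8.16 in the no-compression group. The medians were nearly equal, and only no-compression replicates 7 (8.16) and 6 (7.81) lay above all compression livers. The mean was 7.26 ± 0.25 (SD, n = 7) in the compression group and 7.39 ± 0.43 (SD, n = 7) in the no-compression group, a log2 difference of −0.12 (standard error 0.185, 95% interval −0.52 to 0.28, adjusted p = 0.985 in limma). Without no-compression replicate 7 alone the difference was 0.0047, and without no-compression replicates 3, 6 and 7 it was 0.16 (95% interval −0.12 to 0.45).

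Cd5l, a scavenger receptor-like protein that macrophages secrete, followed the same 2 livers over a narrower range. The lowest, median and highest log2 values were 9.48, 9.57 and 9.66 in the compression group, against 9.47, 9.55 and 9.83 in the no-compression group. No-compression replicates 7 and 6 were the only livers above 9.66, and 2 no-compression livers lay just below all compression livers. The means differed by −0.05 (standard error 0.0592, 95% interval −0.18 to 0.08, adjusted p = 0.979 in limma), by −0.02 and −0.01 without no-compression replicates 6 and 7 in turn, and by 0.03 without replicates 3, 6 and 7 together.

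Vsig4, a complement receptor by which Kupffer cells catch bacteria coated with C3 fragments, hardly differed between livers. Its log2 values had a lowest, median and highest of 8.61, 8.67 and 8.71 in the compression group, against 8.63, 8.67 and 8.71 in the no-compression group. The ranges covered each other, the log2 difference was 0.00 and its 95% interval reached −0.04 to 0.04, on the scale of the qFarms values. Of the 5 macrophage markers, then, 2 had no spread, 1 had equal means and the 2 with a lower mean in the compression group, Marco and Cd5l, had their highest values in the same 2 no-compression livers.

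**Figure D2:**
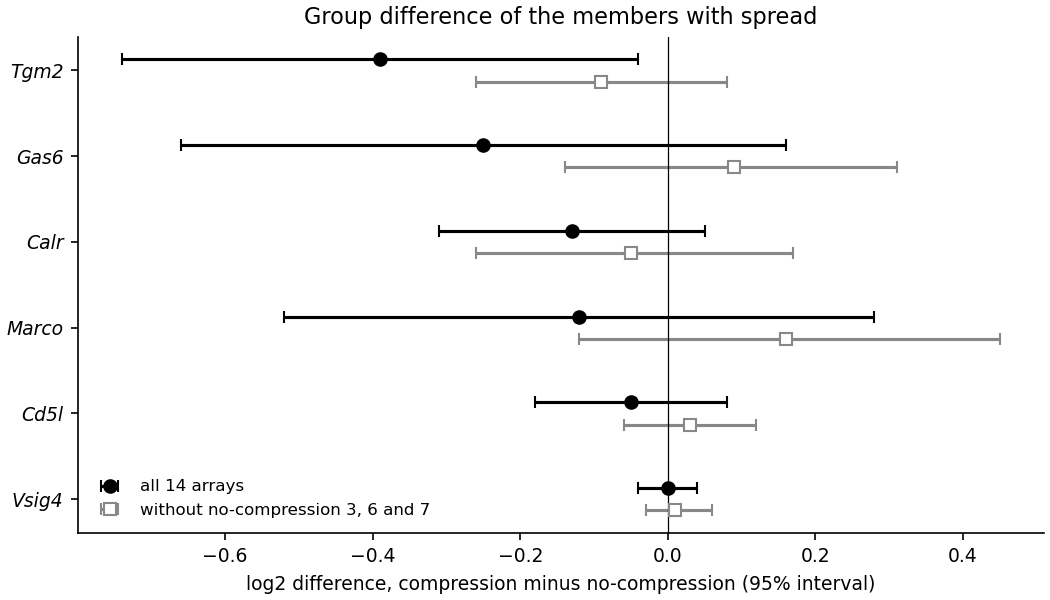
Log2 difference of the means, compression minus no-compression (horizontal axis), of the 6 genes with spread, with 95% intervals of limma, over all 14 arrays (filled circles) and without no-compression replicates 3, 6 and 7 (open squares). Over all arrays the interval of Tgm2 (−0.74 to −0.04) alone leaves out 0, and without the 3 arrays all 6 intervals hold 0.

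Calr, the calcium-binding chaperone of the endoplasmic reticulum that also serves as an engulfment signal when it reaches the surface of a dying cell, was spread in another way. Its lowest, median and highest log2 values were 11.72, 11.98 and 12.24 in the compression group, against 11.90, 12.13 and 12.32 in the no-compression group. Compression replicates 4 (11.72) and 6 (11.83) lay below all no-compression livers, and no-compression replicate 6 alone lay above all compression livers. The mean was 11.99 ± 0.18 (SD, n = 7) in the compression group and 12.12 ± 0.14 (SD, n = 7) in the no-compression group, a log2 difference of −0.13 (standard error 0.0836, 95% interval −0.31 to 0.05, adjusted p = 0.944 in limma). The difference was −0.08 without compression replicate 4 and −0.05 without no-compression replicates 3, 6 and 7.

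Calr was set beside the other chaperones of the endoplasmic reticulum, which fold secreted proteins and are induced together when unfolded proteins collect there. Of 12 measured chaperones 10 had spread, and all 10 had a mean at or below that of the no-compression group, with a median log2 difference of −0.12. In limma 0 passed an adjusted p of 0.05, and 2 of the 10 were lower at an unadjusted p under 0.05, Sdf2l1 and Pdia3, against 2.45% of all probe sets and 2.58% of those with spread. Rank products called 10 of the 12 lower and 0 higher, against 1.20% of all probe sets and 21% of those with spread called lower. Sdf2l1, a component of chaperone complexes, averaged 8.00 ± 0.16 (SD, n = 7) in the compression group and 8.31 ± 0.26 (SD, n = 7) in the no-compression group. Hyou1, a large chaperone of the Hsp70 kind, averaged 10.32 ± 0.40 (SD, n = 7) in the compression group and 10.60 ± 0.22 (SD, n = 7) in the no-compression group. Hspa5, the master chaperone BiP, had a log2 difference of −0.15 and P4hb, a disulfide isomerase, of 0.00. Canx, a chaperone without spread, was not called by rank products. The 10 lower calls therefore include P4hb or a chaperone without spread, so such a call need not mean a difference of the means. Without no-compression replicates 3, 6 and 7 a lower mean was found for 9 of the 10, with a median of −0.05. Compression replicate 4 was the lowest of the 14 livers for Calr, Hspa5, Pdia3, Pdia6, Hyou1, Sdf2l1 and Creld2. Several of these chaperones were selected by the study on these same arrays.

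The promoter of Calr is printed because it shares a sequence feature with these chaperones. The ER stress response element is CCAAT, 9 further bases and CCACG, the site through which the factor ATF6 induces chaperones. It was searched on both strands of RefSeq promoter windows (build GRCm38.p6), which run from 250 bases before to 50 bases after a gene start. It was found in Calr alone among the 9 members with a window (Tgm2 had none), in 6 of 12 chaperones with a window (50%) and in 0.119% of all 32851 windows. In Calr it lay on the opposite strand at positions −162 to −144 from the start, so that it reads CGTGG, 9 bases and ATTGG. The window is chr8:84846882-84847181 (- strand), with the fixed letters of the element in capitals.
Calr: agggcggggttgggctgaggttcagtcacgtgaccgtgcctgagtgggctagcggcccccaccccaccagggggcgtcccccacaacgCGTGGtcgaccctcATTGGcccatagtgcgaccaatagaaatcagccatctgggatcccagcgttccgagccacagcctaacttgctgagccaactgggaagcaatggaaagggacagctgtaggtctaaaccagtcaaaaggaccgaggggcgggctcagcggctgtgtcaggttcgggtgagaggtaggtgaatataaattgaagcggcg

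The element of Calr can be compared with that of 4 chaperones, each shown with 12 bases on either side and the fixed letters in capitals. Hspa5, Pdia6 and Dnajc3 carry it in the direction of the gene, and Creld2, like Calr, on the opposite strand. The sites lie at chr2:34772013-34772055, + strand, chr12:17266479-17266521, + strand, chr14:118937815-118937857, + strand, chr15:88819508-88819550, + strand and, for Calr, chr8:84847063-84847105, - strand.
Calr: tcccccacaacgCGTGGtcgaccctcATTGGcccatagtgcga
Hspa5: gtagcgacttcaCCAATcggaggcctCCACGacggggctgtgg
Pdia6: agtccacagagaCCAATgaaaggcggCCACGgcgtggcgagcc
Dnajc3: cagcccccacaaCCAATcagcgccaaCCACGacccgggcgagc
Creld2: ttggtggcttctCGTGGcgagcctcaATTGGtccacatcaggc

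The 9 bases between the fixed parts differed between these genes. Hsp90b1 and Canx also held the element. The same windows were searched for the unfolded protein response element TGACGTG and for the core GAGGAAGT of PU.1, a factor of macrophages. In the 9 member windows 0 held TGACGTG and 0 held GAGGAAGT, against 2.01% and 3.2% of all windows. A match is a description of the letters, and no match says only that these letters are not in the window.

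The genes whose pattern over the 14 livers was most like that of a member were taken among 1073 named probe sets with spread, as the 3 with the highest Pearson r. Since they were picked for that r, it is a description with no p, and it is also given over the 7 compression livers alone, where the 3 arrays that stand apart play no part. For Calr these were Pdia6, a disulfide isomerase (r = 0.95, and 0.98 over the compression livers), Hyou1 (0.90 and 0.96) and Hspa5 (0.88 and 0.88). For Cd5l they were Ifi30, a lysosomal thiol reductase of antigen-presenting cells (0.93 and 0.96), S100a11, a calcium-binding protein (0.91 and 0.76), and Spi1, which encodes PU.1 (0.89 and 0.96). For Vsig4 they were C1qb, a chain of complement C1q made by macrophages (0.77 and 0.77), Cxcl13, a chemokine of B cells (0.74 and 0.72), and Mrc1, the mannose receptor of macrophages and sinusoidal endothelium (0.72 and 0.76). For Marco they were S100a11 (0.92 and 0.76), Spic, a transcription factor of Kupffer cells and splenic macrophages (0.87 and 0.68), and the imprinted gene Mest (0.83 and 0.64).

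For Gas6 and Tgm2 the likeness over the compression livers differed from gene to gene. For Gas6 the 3 were Retnlg, a neutrophil gene of the resistin family (0.93, and 0.37 over the compression livers), Esr1, the estrogen receptor alpha (0.92 and 0.95), and Apcs, serum amyloid P, an acute phase protein of mice (0.92 and 0.63). For Tgm2 they were Tspan9, a tetraspanin (0.94 and 0.45), Itih1, a protein that hepatocytes secrete (0.94 and 0.78), and Atp8b1, a phospholipid flippase (0.93 and 0.16). The r of Tgm2 with Tspan9 and Atp8b1, and of Gas6 with Retnlg, was thus much lower over the compression livers alone. Smaller drops were found for Itih1 and Apcs, and for the 3 genes most like Marco. In the compression group Tgm2 and Gas6 had an SD of 0.09 and 0.18, against 0.43 and 0.48 in the no-compression group. So narrow a range can by itself lower r, and 7 livers fix it poorly.

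**Figure D3:**
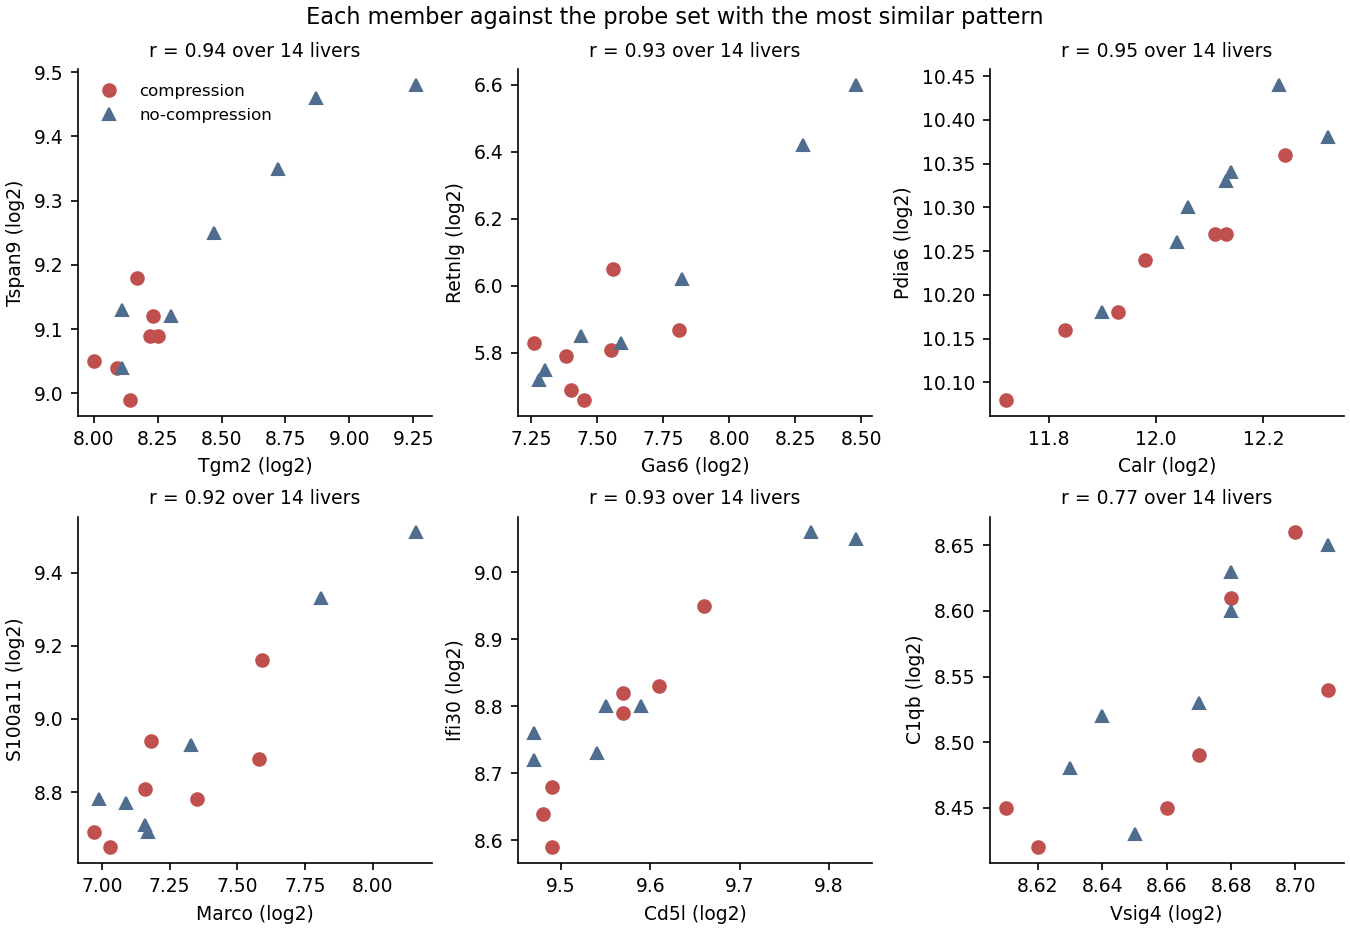
Log2 value of each of the 6 genes (horizontal axes) against that of the probe set with the most similar pattern (vertical axes), 1 point for each liver, compression as circles and no-compression as triangles. Calr and Pdia6 line up over both groups (r = 0.95), while Tgm2 with Tspan9 and Gas6 with Retnlg are looser over the compression livers alone (0.45 and 0.37).

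The other genes of the pathway showed few readings. Of 12 measured bridges and opsonins 5 had spread, all with a lower mean in the compression group and with a median log2 difference of −0.06. Apcs had a lowest, median and highest of 9.75, 10.27 and 10.49 in the compression group, against 9.43, 10.20 and 11.96 in the no-compression group, where replicates 6, 3 and 7 were the highest of all livers. Its log2 difference was −0.34 (standard error 0.351), and without these 3 arrays the difference was 0.32. Pros1, protein S, the other ligand of the receptors of Gas6, averaged 9.25 ± 0.15 (SD, n = 7) in the compression group and 9.35 ± 0.28 (SD, n = 7) in the no-compression group. Its log2 difference was −0.09, and 0.13 without the 3 arrays. Mbl1, a mannose-binding lectin, had a log2 difference of −0.06, and 0.03 without them, and C1qa and C1qc had no spread.

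Of 16 measured receptors 2 had spread. Cd36, a scavenger receptor for lipids and dying cells, averaged 7.54 ± 0.39 (SD, n = 7) in the compression group and 7.72 ± 0.48 (SD, n = 7) in the no-compression group. Its log2 difference was −0.18, and 0.19 without no-compression replicates 3, 6 and 7. Lrp1, which reads calreticulin on dying cells, had a log2 difference of 0.01 (standard error 0.0422). Of the 12 measured genes of the engulfment machinery and the 10 of find-me and do-not-eat-me signals 0 had spread. They include Cdc42 and Rac1, GTPases that drive the actin of the engulfing cup, and Cd47, the signal that holds phagocytes off, none of which gave a reading. Of 11 measured genes of digestion and sterol response 2 had spread. Abca1, which exports the cholesterol of engulfed cells, averaged 9.29 ± 0.13 (SD, n = 7) in the compression group and 9.45 ± 0.21 (SD, n = 7) in the no-compression group. Its log2 difference was −0.16, and 0.00 without the 3 arrays. Ctsl, a lysosomal protease, had a log2 difference of −0.14, and 0.18 without no-compression replicates 3, 6 and 7. In limma 0 genes of these 5 lists passed, among those with spread 0 did at an unadjusted p under 0.05 either, and rank products called 4 lower, Apcs, Mbl1, Cd36 and Abca1, and 0 higher, against 1.20% of all probe sets and 21% of those with spread called lower. Without no-compression replicates 3, 6 and 7 the log2 difference of Apcs, Mbl1 and Cd36 turned sign and that of Abca1 was 0.00. These genes, and among the markers that follow Hmox1, Spic, S100a8 and Retnlg, were also selected by the study on these same arrays.

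The other markers of cell types were read in the same way. Of 11 other markers of Kupffer cells 4 had spread, 2 with a lower mean (Hmox1, −0.29, and 0.05 without no-compression replicates 3, 6 and 7, and Spic, −0.16, and 0.00 without them) and 2 with a higher one (Id3, 0.04, and C6, 0.01), with a median of −0.08, and 0.03 without the 3 arrays. Without the 3 arrays Id3 was at 0.08 and C6 at −0.13. Hmox1 and Spic were highest in no-compression replicates 6 and 7. C6 went the other way, at 11.02 in replicate 6, the lowest of the 14 livers, and 11.23 in replicate 7. Id3 was at 7.08 in replicate 6 and 6.87 in replicate 7. The mean level of all 11, those without spread included, lay between 8.30 and 8.37 in the compression group. In the no-compression group it lay between 8.31 and 8.44. The markers without spread narrow these ranges. Spic (mean 6.38) and Id3 (6.91) lay below the 95th percentile of the negative control rows. Of 7 measured neutrophil markers 3 had spread, and the mean level of the 7 lay between 6.09 and 6.16 in the compression group and between 6.08 and 6.34 in the no-compression group. S100a8 had a lowest, median and highest of 5.50, 5.57 and 5.65 in the compression group, against 5.43, 5.68 and 6.18 in the no-compression group. No-compression replicates 7, 6 and 3 were its 3 highest livers, as they were for Tgm2 and Gas6. For Gas6 replicate 3 (7.82) lay barely above compression replicate 7 (7.81). The log2 difference of S100a8 was −0.19, and 0.00 without the 3 arrays. These levels lie near those of the negative control rows, and the part of neutrophils in the values of Tgm2, Gas6 and Marco was not tested. Of 11 measured markers of monocyte-derived macrophages only Lyz2 (−0.04) had spread, of 9 of sinusoidal endothelium only Lyve1 (−0.04), of 8 of stellate cells only Dcn (0.02) and of 5 of bile duct cells none. In limma 0 of the genes of these lists passed an adjusted p of 0.05.

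**Figure D4:**
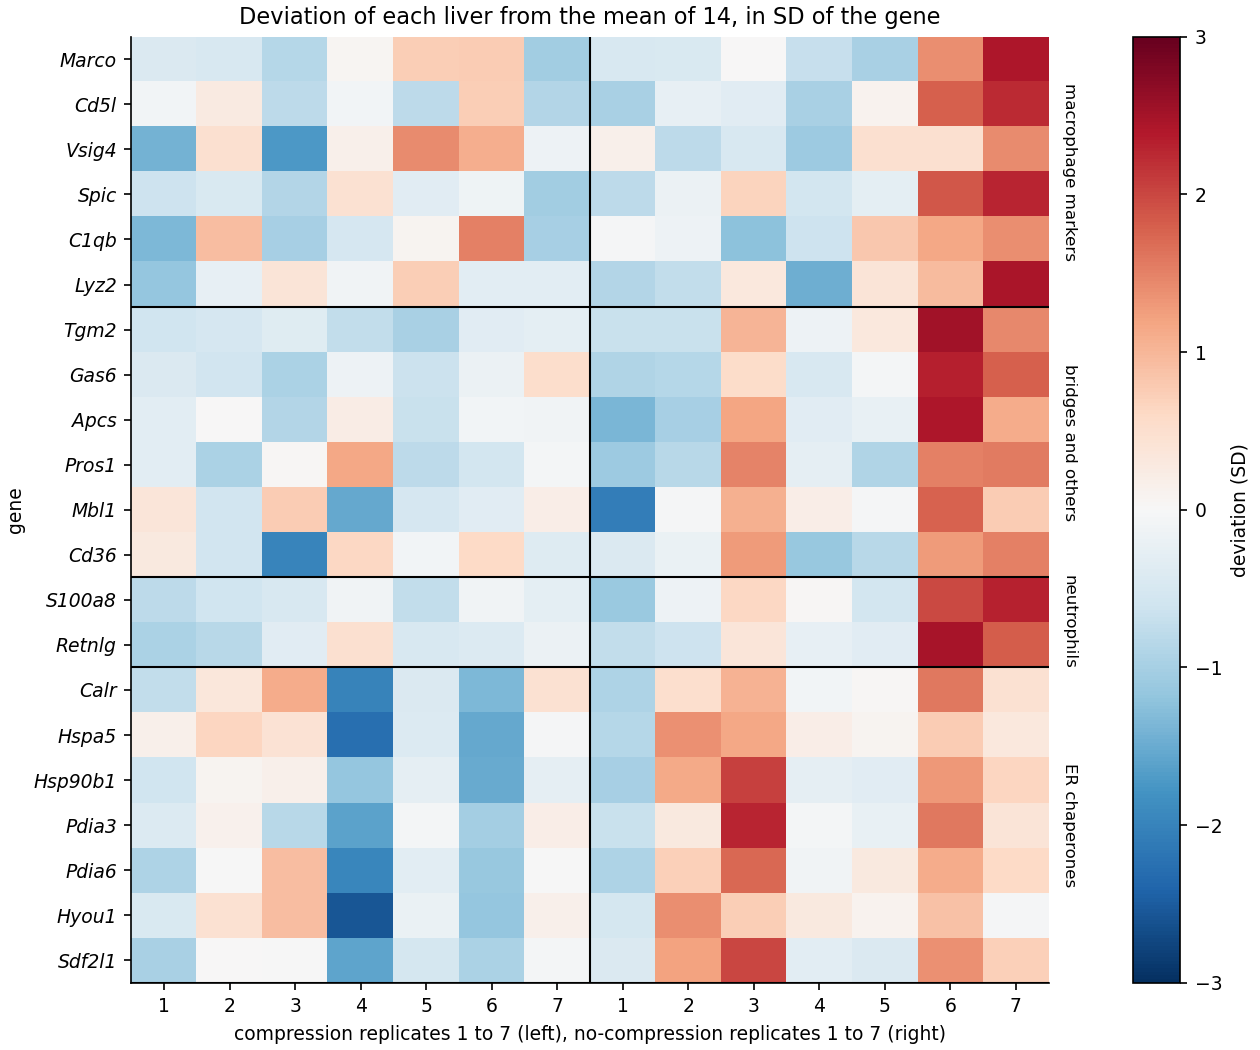
Deviation of each liver (columns, compression replicates 1 to 7 on the left and no-compression replicates 1 to 7 on the right) from the mean of the 14 livers, in SD of the gene (colour), for the 6 genes with spread and 15 genes of the lists. No-compression replicates 6 and 7 are high for Marco, Cd5l, Tgm2, Gas6 and the neutrophil genes, and replicate 3 for Tgm2 and Apcs. Compression replicates 4 and 6 are low for Calr and the other chaperones. Of the other Kupffer cell markers with spread only Spic is shown, and Hmox1, C6 and Id3 are not.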

How the data were processed

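RNA from the livers of 7 compression and 7 no-compression mice (200 ng) was hybridized to Clariom S arrays. The authors summarized the probes with qFarms (R 3.4.4, according to the submitters' processing notes) and deposited log2 values, which were used as they are. After removal of 6923 control rows 22206 probe sets remained, of which the platform annotation gave 1 gene for 19572, several for 0 and none for 2634. The build is not given in the sources used here. The number of arrays limits the precision.

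Differences were tested with limma (3.58.1, R 4.3.3), adjusted by Benjamini-Hochberg over all probe sets at 0.05. Single genes were also compared by an exact permutation test over 3432 splits. Rank products (FDR of 0.01, 49 random pairings), the method of the study, was coded with numpy 2.4.6 and pandas 2.3.3 (Python 3.11.15) and kept as an alternative, since its ranks assume a similar spread in every probe set. The code was tested on simulated data. For rank products these data had the same spread in every probe set, unlike the deposited values. That test therefore checks the code and not how the method behaves at unequal spread.

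The genes, lists and alternatives were chosen with earlier results of these data known. The text names all 10 members, the 3 most similar genes of each with spread, and from each list up to 4 genes with spread by size of difference and up to 2 without it by mean level. Pdia3, P4hb and the carriers of the promoter element were named after their values were seen. List counts without no-compression replicates 3, 6 and 7 were added after the data were seen. The alternatives were another normalization or centring, removal of dim or flat probe sets, a trended robust limma, the exact Wilcoxon test, a replicate block, and omission of single arrays.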

Additional observations from a re-analysis of the deposited data

How the results depend on the processing

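The count of probe sets that passed limma was 0 in the 21 other fits of limma and with the exact Wilcoxon test, which had 805 probe sets at an unadjusted p under 0.05, against 1152 for limma. Rank products called 557, counted over both directions. Tgm2 and Calr kept a lower mean in the compression group under all 21 alternatives. Removal of dim or flat probe sets, the trended robust limma and the replicate block cannot change a difference of means. Under these the direction was therefore fixed in advance. Their log2 differences ran from −0.46 to −0.27 and from −0.17 to −0.08 when any 1 array was left out. Without no-compression replicates 3, 6 and 7 they were nearer to no difference, at −0.09 for Tgm2 and −0.05 for Calr. Gas6 turned to 0.09, Marco to 0.16 and Cd5l to 0.03 without no-compression replicates 3, 6 and 7. With any 1 array left out Marco ranged from −0.19 to 0.0047 and Vsig4 from −0.0061 to 0.0099, and under quantile normalization Vsig4 was at −0.0014, values of Vsig4 that are smaller than its standard error of 0.017. The causes of these turns were not tested. With the replicate number as a block (replicate block) 0 probe sets passed. Each number occurs in both groups, so the block leaves the difference of Tgm2 at −0.39 by construction. Its standard error was 0.14 with the block, against 0.162 without it. The labels do not say whether the numbers pair the mice. The deviations of same-numbered livers correlated from −0.49 to 0.34, above 0.1 in 2 of 7 pairs, which cannot settle it. No gene had several probe sets, so the choice among them gave no alternative. The deposited values hide any change of the 4 genes without spread, and 7 arrays in each group limit the rest.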
